A study of Mus musculus with 22 samples.

Results

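The genes described here encode the proteins of the mitochondrial ribosome, as measured in mouse blastocysts that had grown in culture or in the reproductive tract. They were taken as every gene whose symbol in the array annotation is Mrpl or Mrps followed by a number and which had at least 1 probe with a detection p-value under 0.05 on at least 3 of the 22 arrays. The annotation held 76 such symbols. Of these, 71 passed and are called members below, out of 9345 genes measured by the same rule. They comprise 44 genes named for the large subunit (Mrpl) and 27 named for the small subunit (Mrps). Mrps14, Mrps36, Mrpl19, Mrpl21 and Mrpl32 were detected on 0 of 22 arrays and have no level here. Mrpl44 was not analysed here.

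RNA of blastocysts at embryonic day 3.5 was hybridised to 1-colour Illumina bead arrays, 1 array per sample. The labels give 2 strains, CD1 and B6, and 4 conditions, which are culture in the media HTF, ISM1 or KSOM and growth in vivo. The groups are CD1 HTF, CD1 ISM1, CD1 KSOM and CD1 in vivo, followed by B6 HTF, B6 ISM1, B6 KSOM and B6 in vivo. Of the 8 groups, 7 hold 3 arrays that the series design calls biological replicates, and CD1 KSOM holds 1. The number of embryos per array, the age of the mothers, the hours in culture and the slide of each array are not given in the sources used here. The p-values therefore measure the spread between these samples. The series title places the comparisons in the setting of assisted reproduction, where embryos of different strains are exposed to different culture media.

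Mitochondrial ribosomes translate the few proteins that mitochondrial DNA still encodes, which are membrane subunits of the respiratory complexes and of ATP synthase. All of the ribosome's proteins come from nuclear genes and are imported, while its RNAs are made inside the organelle. The large subunit joins amino acids into protein and the small subunit reads the messenger RNA. The preimplantation embryo works with mitochondria inherited from the oocyte, and loss of single mitochondrial ribosomal proteins is known to stop mouse development after implantation. Of the 71 members, 42 have a counterpart in bacterial ribosomes and 29 are found only in mitochondria. Mrps30 and Mrps18a were named for the small subunit but are now placed in the large one by structures of the ribosome. They are counted here by name.

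The genes lie on 17 chromosomes, with 11 on chromosome 11 and 8 on chromosome 17, so they do not form 1 cluster. RefSeq (build GRCm38.p6) gave an upstream sequence for 63 of the 71, and for 8 (Mrpl4, Mrpl13, Mrpl15, Mrpl38, Mrpl54, Mrps28, Mrps34 and Mrps35) none was used here. The 250 bases before each gene's start were searched on both strands for 3 motifs of factors known to act on nuclear genes for mitochondrial proteins: GCGCA, any 1 base and GCGC in a row (NRF1), CCGGAAG (GABPA) and AAGATGGCG (YY1). None of the 3 motifs lies inside another, although matches of different motifs may share bases. The NRF1 letters were found upstream of 8 of the 63 members (12.7%), and of 4.23% of the 27025 genes with such a sequence. The GABPA letters were found upstream of 18 members (28.6%) and of 7.83% of all genes. The YY1 letters were found upstream of 2 members (3.17%) and of 0.710% of all genes. At least 1 of the 3 was found upstream of 27 members (42.9%) and of 11.8% of all genes. These windows are shared with neighbours, since 29 of the 63 (46.0%) overlap another annotated gene, against 30.7% of all windows. A match is a description of the letters and not a binding site, and a window without one says nothing about the factor.

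The 4 windows below are shown because their genes carry the contrasts of the results: Mrpl52 and Mrpl42 had the lowest values in HTF-grown B6 embryos relative to in vivo, Mrpl17 stood higher in KSOM-grown B6 embryos, and Mrpl3 varied least of all members. Each runs 5′ to 3′ on the gene's own strand and ends at the base before the gene's start. Capitals mark a motif match on either strand. Mrpl52 lies on the plus strand with its window at chr14:54426659-54426908 and holds 1 GABPA match on the opposite strand. Mrpl42 lies on the minus strand at chr10:95501950-95502199 and holds none of the 3. Mrpl17 lies on the minus strand at chr7:105811088-105811337 and holds a GABPA match followed by an NRF1 match. Mrpl3 lies on the plus strand at chr9:105053018-105053267 and holds 1 GABPA match near its end.
Mrpl52: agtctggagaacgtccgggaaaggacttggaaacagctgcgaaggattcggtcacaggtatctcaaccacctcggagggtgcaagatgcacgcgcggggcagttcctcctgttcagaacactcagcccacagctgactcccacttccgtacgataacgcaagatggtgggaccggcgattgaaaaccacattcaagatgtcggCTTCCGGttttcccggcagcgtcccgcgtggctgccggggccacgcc
Mrpl42: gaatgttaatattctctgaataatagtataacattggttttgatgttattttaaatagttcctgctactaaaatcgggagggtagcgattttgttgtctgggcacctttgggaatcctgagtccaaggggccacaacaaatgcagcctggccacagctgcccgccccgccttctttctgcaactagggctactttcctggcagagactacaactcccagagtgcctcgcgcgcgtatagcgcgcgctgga
Mrpl17: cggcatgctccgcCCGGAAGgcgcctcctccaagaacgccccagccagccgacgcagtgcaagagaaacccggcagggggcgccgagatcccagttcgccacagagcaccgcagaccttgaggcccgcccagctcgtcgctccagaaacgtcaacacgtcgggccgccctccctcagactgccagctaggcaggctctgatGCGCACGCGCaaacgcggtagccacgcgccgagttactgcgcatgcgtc
Mrpl3: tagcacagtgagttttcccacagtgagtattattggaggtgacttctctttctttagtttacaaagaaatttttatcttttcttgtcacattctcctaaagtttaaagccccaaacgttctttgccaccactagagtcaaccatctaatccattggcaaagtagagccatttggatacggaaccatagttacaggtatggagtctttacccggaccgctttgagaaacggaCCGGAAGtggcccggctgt

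All levels below are normalised log2 intensities and all differences are in log2 units, so that 1 unit is a doubling. A level is that of a gene's own probe, so levels are compared between arrays and not between genes. The arrays had median raw intensities of 90.6 to 154, between 7410 and 9400 probes with a detection p-value under 0.01, and correlations with one another of 0.784 to 0.981. With 3 arrays a group precision is limited, and the median standard error of a difference between such groups was 0.34 over the members and 0.43 over all genes. Trophectoderm markers were measured for 7 of 7 genes on the list, inner cell mass markers for 4 of 5 and primitive endoderm markers for 4 of 5, with mean levels per array of 9.71 to 12.2, 8.27 to 10.2 and 6.92 to 10.4. None of the 5 cumulus cell markers passed the rule of detection on at least 3 arrays. Of the oviduct and uterine markers 3 of 5 were measured, at 5.55 to 6.92, with the highest value on a CD1 in vivo array. Of the blood and immune markers only Hba-a1, a haemoglobin gene, was measured, at 4.47 to 7.24. The Hba-a1 level was 5.22 to 7.24 on the B6 in vivo arrays, against at most 4.90 on the B6 cultured arrays, and its part in the B6 comparisons was not tested. The part of the cell types' proportions was not tested either. In whole blastocysts fewer cells of a type and less RNA per cell cannot be told apart.

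Members were measured well as a set: 66 of the 71 were detected on all 22 arrays. The exceptions were Mrps11 and Mrpl4, each on 21 arrays, Mrpl15 on 19, and Mrpl45 and Mrpl57 on 10 each. The SD of a member's level over the 22 arrays had a median of 0.41. Mrpl4 (SD 1.11), Mrpl15 (0.98), Mrps11 (0.95) and Mrpl35 (0.77) varied most, and 3 of these 4 are among the members not detected everywhere. Mrpl3, whose human counterpart is a disease gene of the large subunit, varied least, with levels between 11.76 and 12.39 on all 22 arrays. Mrps12 (SD 0.24) and Mrpl17 (SD 0.25) were the next most even.

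**Figure D1:**
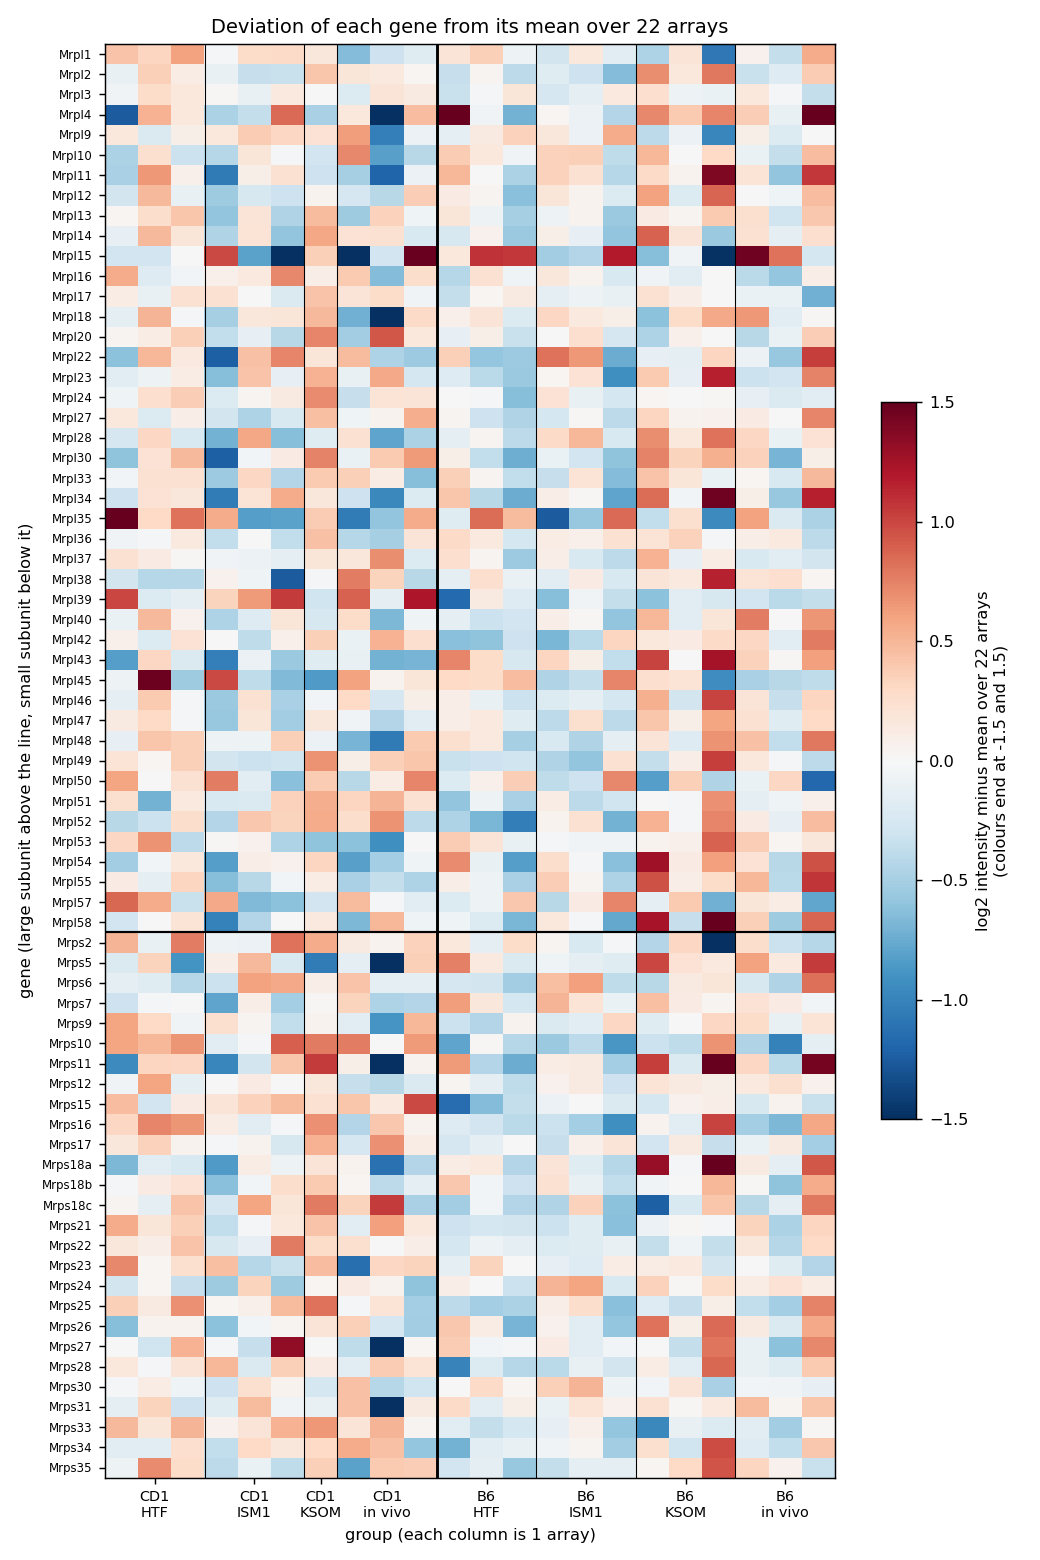
Level of each of the 71 members (rows) on each of the 22 arrays (columns, by group) as log2 intensity minus the gene's mean over the 22 arrays, with colours ending at ±1.5 log2 units. Mrpl4, Mrpl15, Mrps11 and Mrpl35, the members with the largest SD, hold deep colours in both directions, while Mrpl3, with the smallest, stays pale throughout.

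The mean level over the 71 members gives 1 value per array. It was 10.61 ± 0.08 in CD1 HTF, 10.43 ± 0.14 in CD1 ISM1 and 10.42 ± 0.16 in CD1 in vivo embryos (SD, n = 3 each), and 10.73 on the single CD1 KSOM array. It was 10.40 ± 0.14 in B6 HTF, 10.41 ± 0.12 in B6 ISM1, 10.67 ± 0.13 in B6 KSOM and 10.57 ± 0.24 in B6 in vivo embryos (SD, n = 3 each). The order in B6 was thus KSOM, in vivo, ISM1 and HTF, in which in vivo overlapped all 3 media and HTF and ISM1 overlapped each other. The 3 HTF arrays at 10.24, 10.47 and 10.49 and the 3 ISM1 arrays, at most 10.50, all lay below the 3 KSOM arrays, at least 10.54. The B6 in vivo arrays were spread most, at 10.31, 10.61 and 10.79.

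**Figure D2:**
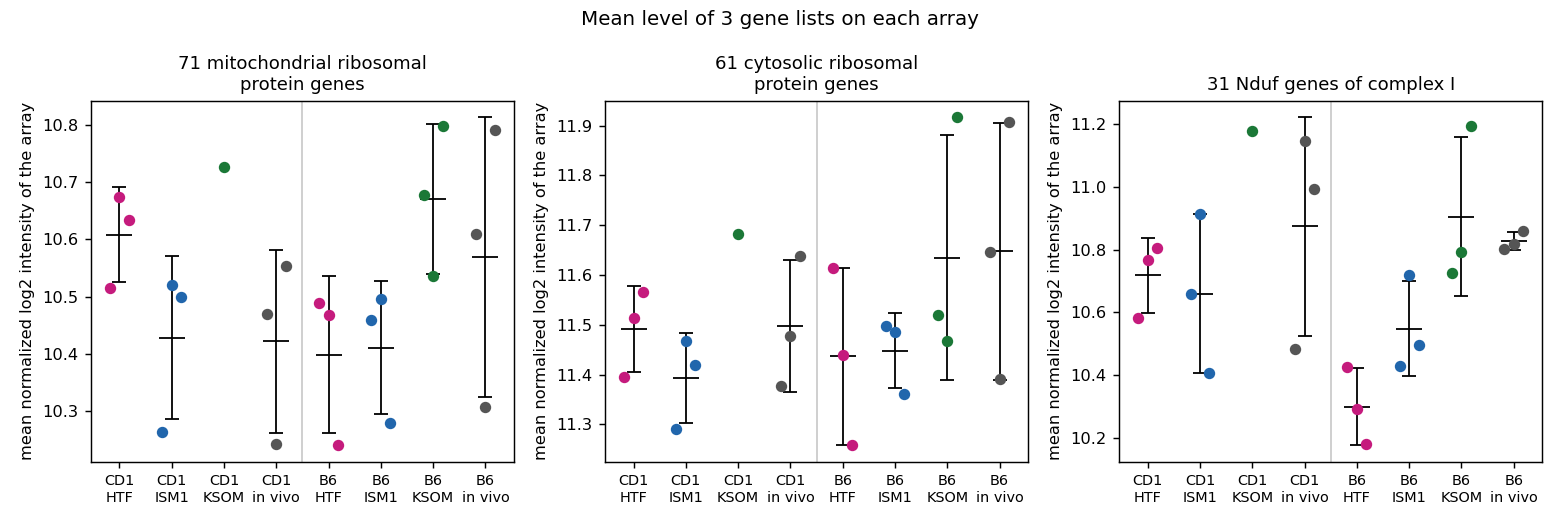
Mean normalised log2 intensity per array (dots) over the 71 mitochondrial ribosomal protein genes, the 61 cytosolic ribosomal protein genes and the 31 Nduf genes of complex I, by group, with the group mean as a bar and the SD as whiskers. In B6, the HTF and ISM1 arrays lie below the KSOM arrays for the mitochondrial ribosomal protein genes, and the in vivo arrays span most of that range. The HTF and ISM1 arrays lie below KSOM for the Nduf genes too, and overlap KSOM for the cytosolic ones.

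That spread in vivo was shared across genes. B6 in vivo replicate 2 was the lowest of its 3 arrays for 46 of the 71 members, against 33.5% of all genes. B6 in vivo replicate 3 was the highest for 41 members, against 38.2% of all genes. In the cultured groups, B6 ISM1 replicate 3 was lowest for 45 members (40.8% of all genes) and CD1 ISM1 replicate 1 for 46 (34.4%). Median differences from B6 in vivo are therefore also given below without these in vivo arrays.

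No member passed the test in any comparison. With limma and Benjamini-Hochberg adjustment over all 9345 genes, 0 of 71 members were called, at an adjusted p under 0.05, in each of the 16 contrasts, and few genes of any kind did (0 to 19 of 9345 per contrast). The smallest adjusted p of a member was 0.214, for Mrpl2 in B6 ISM1 against KSOM. On simulated data the same procedure found 15 of 100 genes changed by 1 log2 unit and 63 of 100 changed by 2. These shares need not hold for any 1 comparison, since the spread within groups differed. The median SD of all genes was 0.31 in B6 HTF, 0.46 in B6 in vivo and 0.61 in CD1 in vivo embryos. Each comparison is therefore described by its values, by the number of members at an unadjusted p under 0.05, and by the number whose 2 groups of 3 arrays do not overlap, each beside the same share of all genes.

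In HTF-grown B6 blastocysts the members were mostly lower than in vivo. The difference was positive for 21 members and negative for 50, against 50.8% positive among all genes, and its median was -0.22, against 0.01 over all genes. The middle 50% of members lay between -0.37 and 0.05. Leaving out B6 in vivo replicate 2 moved the median to -0.33 and leaving out replicate 3 to -0.05. Large subunit genes had a median of -0.16 (13 of 44 higher) and small subunit genes one of -0.24 (8 of 27 higher). None was called by limma (0 of 71, against 0.0107% of all genes), and 3 had an unadjusted p under 0.05 (3.39% of all genes). The groups did not overlap for 7 members that were lower (5.22% of all genes) and 2 that were higher (5.6%).

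The 3 with the smallest p-values are all large subunit proteins found only in mitochondria. Mrpl42 had levels of 9.86, 9.89 and 10.18 in B6 HTF embryos, against 10.80, 10.32 and 11.26 in B6 in vivo embryos. All HTF arrays lay below all in vivo arrays, and the difference was -0.82 (SE 0.29, 95% interval -1.44 to -0.20, adjusted p = 0.999 by limma), which is 1.76-fold lower. Mrpl52 had 10.65, 10.42 and 10.07 in B6 HTF embryos, against 11.24, 10.99 and 11.57 in B6 in vivo embryos. These groups did not overlap either, with a difference of -0.88 (SE 0.35, 95% interval -1.63 to -0.14, adjusted p = 0.999 by limma). Mrpl40, whose human counterpart lies in the DiGeorge syndrome region, had 11.04, 10.85 and 10.88 in B6 HTF embryos, against 11.94, 11.17 and 11.83 in B6 in vivo embryos. It was lower on every HTF array, by a difference of -0.72 (SE 0.31, 95% interval -1.38 to -0.07, adjusted p = 0.999 by limma).

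The other lower members without overlap belong to the small subunit: Mrps28 (difference -0.58), Mrps15 (-0.54), Mrps12 (-0.31) and Mrps24 (-0.22). Mrps12 is the counterpart of a bacterial protein that sits where codons are read. Its levels were 12.58, 12.39 and 12.15 in B6 HTF embryos, against 12.69, 12.78 and 12.60 in B6 in vivo embryos, so the highest HTF array lay just under the lowest in vivo array. Higher without overlap were Mrps30 (difference 0.18) and Mrpl45, a protein near the exit of the nascent chain. Mrpl45 had 5.74, 5.71 and 5.90 in B6 HTF embryos, detected on 3 of 3 arrays, against 4.95, 5.02 and 5.05 in B6 in vivo embryos, where it was not above background on any. Set against the detection floor of the in vivo arrays it was at least 1.35-fold higher in HTF (adjusted p = 0.999 by limma).

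ISM1-grown B6 blastocysts gave 23 members higher and 48 lower than in vivo, against 50% higher among all genes. The median was -0.18, against 0.00 over all genes, and it ranged from -0.31 without B6 in vivo replicate 2 to -0.04 without replicate 3. The limma test called 0 members (0% of all genes), and 0 had an unadjusted p under 0.05 (1.19% of all genes). The groups did not overlap for 2 lower members (3.73% of all genes) and for 0 higher ones (4.55%). Mrps5, a small subunit protein with a bacterial counterpart, had 9.19, 9.12 and 9.08 in B6 ISM1 embryos, against 9.86, 9.41 and 10.31 in B6 in vivo embryos. The difference of -0.73 had an SE of 0.51. Mrpl53 was the other, with 8.80, 8.77 and 8.77 in B6 ISM1 embryos, against 9.18, 8.85 and 8.99 in B6 in vivo embryos, a difference of -0.23 (SE 0.32).

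KSOM-grown B6 blastocysts leaned the other way. Relative to in vivo, 46 members were higher and 25 lower, against 50.5% higher among all genes, and the median was 0.14, against 0.01 over all genes. It stayed above 0 in 15 of 15 settings but came to 0.02 when arrays were scaled to a common median, where the median of all genes was -0.09. It was 0.07 without B6 KSOM replicate 3, 0.09 without B6 in vivo replicate 2 and 0.22 without B6 in vivo replicate 3. Large subunit genes had a median of 0.20 (32 of 44 higher), and small subunit genes one of 0.07 (14 of 27 higher), which turned to -0.02 under that scaling. Calls by limma numbered 0 (0% of all genes), and 1 member, Mrpl2, had an unadjusted p under 0.05 (5.92% of all genes). The groups did not overlap for 3 members that were higher (4.78%) and for 0 that were lower (3.4%).

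Those 3 were Mrpl17, Mrpl37 and Mrpl24. Mrpl17, with a bacterial counterpart near the exit tunnel, had 13.40, 13.26 and 13.17 in B6 KSOM embryos, against 13.07, 13.07 and 12.45 in B6 in vivo embryos. All KSOM arrays were above all in vivo arrays, by a mean of 0.41 (95% interval -0.08 to 0.91, adjusted p = 0.837 by limma). Mrpl37 had 12.91, 12.27 and 12.51 in B6 KSOM embryos, against 12.16, 12.22 and 12.11 in B6 in vivo embryos. Its difference was 0.40, but its second probe gave -0.20, so the 2 probes disagree. Mrpl2, a core protein near the site of peptide bond formation, had 11.93, 11.39 and 12.03 in B6 KSOM embryos, against 10.90, 11.04 and 11.61 in B6 in vivo embryos. The groups overlapped, and the difference was 0.60 (SE 0.26, 95% interval 0.06 to 1.14, adjusted p = 0.791 by limma).

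**Figure D3:**
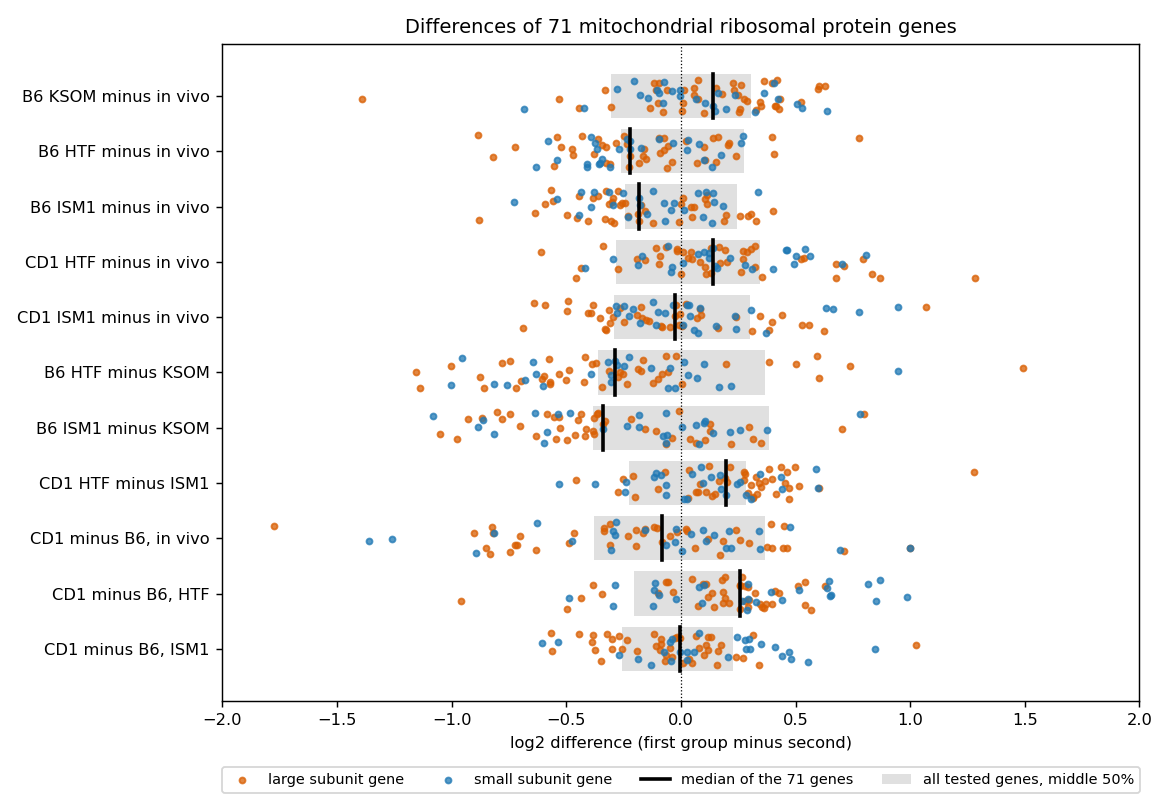
Log2 difference of each member (dots, orange for large and blue for small subunit) in 11 comparisons, with the median of the 71 as a black line and the middle 50% of all 9345 genes as a grey bar. The members' medians lie below 0 in B6 HTF and B6 ISM1 against in vivo and against KSOM, and above 0 in CD1 HTF against in vivo, in CD1 HTF against ISM1 and in CD1 against B6 in HTF.

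HTF and ISM1 were also set directly against KSOM within B6. In HTF, 15 members were higher and 56 lower than in KSOM, against 49.6% higher among all genes, with a median of -0.29 (all genes -0.01). Without overlap, 16 members were lower (8.74% of all genes) and 2 higher (6.28%). Of the members, limma called 0 (0.0107% of all genes), and 10 had an unadjusted p under 0.05 (9.53% of all genes). All 10 were lower in HTF. The shift was seen in both subunits, with medians of -0.33 for large (8 of 44 higher) and -0.28 for small subunit genes (7 of 27 higher). It ranged from -0.39 to -0.20 over the settings tried.

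In ISM1, 21 members were higher and 50 lower than in KSOM (49.2% of all genes were higher), with a median of -0.34 (all genes -0.01) and a range over settings of -0.41 to -0.12, the last with median scaling (all genes 0.09). Without overlap, 13 were lower (8.81% of all genes) and 1 higher (7.15%). The limma test called 0 (0% of all genes), and 6, all lower, had an unadjusted p under 0.05 (12.3% of all genes). Large subunit genes had a median of -0.38 (11 of 44 higher). Small subunit genes had one of -0.08 (10 of 27 higher), which became 0.11 with median scaling, where that of all genes was 0.09. Mrpl2, Mrps18a, Mrpl30 and Mrpl58 reached an unadjusted p under 0.05 against KSOM in both media. The 2 comparisons share the KSOM arrays, and the last 3 of these genes were named after their values were seen. The share of all genes that passed in both is not given here, so this recurrence is not a result about the members.

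Mrpl2 had 10.88, 11.28 and 10.84 in B6 HTF and 11.05, 10.92 and 10.58 in B6 ISM1 embryos, against 11.93, 11.39 and 12.03 in B6 KSOM embryos. Every KSOM array was above every array of the other media. The difference was -0.78 for HTF (95% interval -1.32 to -0.24, adjusted p = 0.448 by limma) and -0.93 for ISM1 (95% interval -1.47 to -0.39, adjusted p = 0.214 by limma). Mrpl52 had 10.65, 10.42 and 10.07 in B6 HTF embryos and 11.63, 11.08 and 11.85 in B6 KSOM embryos. Its difference of -1.14 (SE 0.35, 95% interval -1.88 to -0.40, adjusted p = 0.445 by limma) is 2.20-fold lower in HTF. In B6 ISM1 embryos Mrpl52 had 11.16, 11.34 and 10.40, which overlap KSOM.

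Mrps18a shows how far 1 array can carry such a result. It had 10.61, 10.24 and 9.99 in B6 ISM1 embryos, against 11.72, 10.38 and 11.99 in B6 KSOM embryos, of which the middle value is that of replicate 2. The difference was -1.08 with all arrays (SE 0.42, adjusted p = 0.325 by limma). Without B6 KSOM replicate 2 it was -1.57 (adjusted p = 0.0453 by limma), and that of Mrpl2 was -1.13 (adjusted p = 0.036 by limma). Between HTF and ISM1 the B6 members had no common lean: 32 were higher and 39 lower in HTF than in ISM1 (49.4% of all genes were higher), with a median of -0.03. By limma, 0 were called (0% of all genes) and 1, Mrps15, had an unadjusted p under 0.05 (1.84% of all genes), with 0 higher (5.02%) and 1 lower (5.2%) without overlap.

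**Figure D4:**
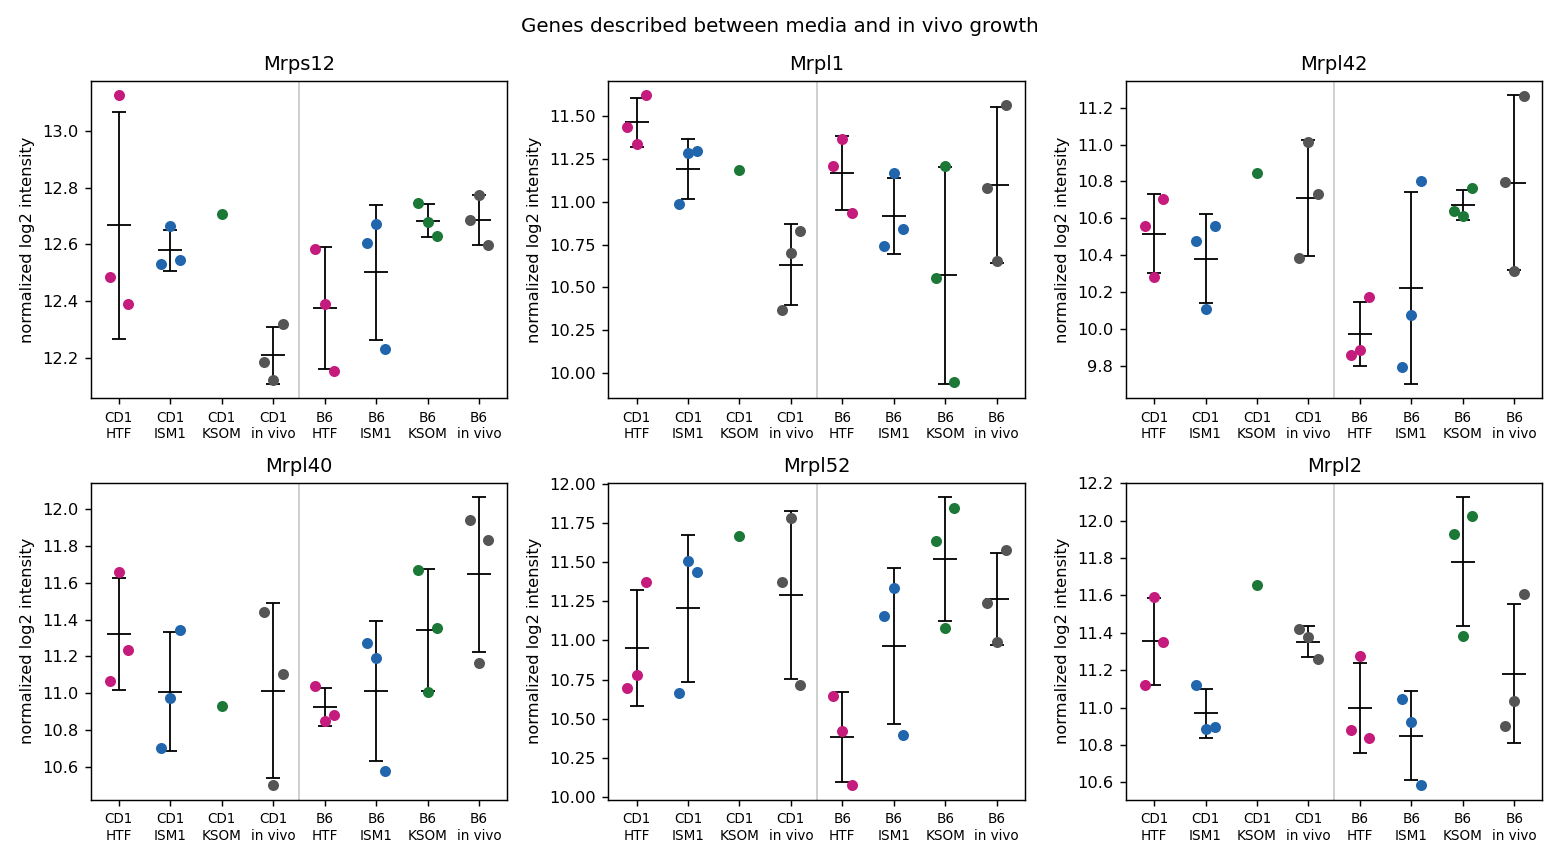
Normalised log2 intensity of Mrps12, Mrpl1, Mrpl42, Mrpl40, Mrpl52 and Mrpl2 on each array (dots) by group, with the mean as a bar and the SD as whiskers. Mrps12 lies above in vivo in CD1 HTF and below it in B6 HTF, and Mrpl2 is highest in B6 KSOM among the B6 groups.

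In CD1 blastocysts HTF gave the opposite lean. Relative to in vivo, 51 members were higher and 20 lower, against 52.8% higher among all genes, and the median was 0.14, against 0.03 over all genes. The 2 subunits gave like medians of 0.13 for large (31 of 44 higher) and 0.15 for small subunit genes (20 of 27 higher). Median scaling raised the members' median to 0.70 and that of all genes to 0.46, a distance of 0.25. Without CD1 in vivo replicate 2, the array with the fewest detected probes, the median was 0.11 with 45 of 71 higher. By limma, 0 members were called (0.0107% of all genes were) and 3 had an unadjusted p under 0.05 (7.06% of all genes). Without overlap, 4 members were higher (6.06%) and 0 lower (4.32%).

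Mrpl1, counterpart of the bacterial protein of the mobile stalk where spent transfer RNA leaves, had 11.44, 11.34 and 11.62 in CD1 HTF embryos, against 10.37, 10.70 and 10.83 in CD1 in vivo embryos. The groups were 0.83 apart (SE 0.30, 95% interval 0.19 to 1.48, adjusted p = 0.576 by limma), or 1.78-fold. Its second probe gave a smaller difference of 0.43 in the same direction. Mrps12 had 12.49, 13.12 and 12.39 in CD1 HTF embryos, against 12.19, 12.12 and 12.32 in CD1 in vivo embryos, a difference of 0.46 (SE 0.23, 95% interval -0.03 to 0.94, adjusted p = 0.724 by limma). All HTF arrays were above all in vivo arrays, with replicate 2 the farthest from them.

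Mrpl55 had 9.58, 9.33 and 9.79 in CD1 HTF embryos, against 8.98, 9.11 and 8.99 in CD1 in vivo embryos, again without overlap and with a difference of 0.54 (SE 0.35). For Mrpl47 the difference was 0.35, while its second probe gave -0.33. That probe was near background, with a mean level of 5.70 and detection on 17 of 22 arrays. Mrpl35 had the widest difference, 1.28 (SE 0.57, 95% interval 0.08 to 2.49, adjusted p = 0.664 by limma), from 9.95, 8.59 and 9.11 in CD1 HTF embryos and 7.24, 7.71 and 8.85 in CD1 in vivo embryos. These ranges overlap, and Mrpl35 is one of the 4 members that vary most over all arrays.

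ISM1-grown CD1 blastocysts gave no common lean. Relative to in vivo, 32 members were higher and 39 lower (50.2% of all genes were higher), and the median was -0.02, which changed sign with the settings (-0.09 to 0.24, the last with median scaling, where all genes had 0.21). Again limma called 0 (0% of all genes), and 0 had an unadjusted p under 0.05 (5.04% of all genes). Without overlap, 2 were higher (2.66%) and 3 lower (2.54%). The higher ones were Mrpl1 (10.99, 11.29 and 11.30 in CD1 ISM1 embryos, difference 0.56, SE 0.30) and Mrps12 (12.53, 12.66 and 12.54, difference 0.37, SE 0.23). They are also 2 of the 4 that were higher without overlap in CD1 HTF, and both comparisons use the same in vivo arrays. The lower ones were Mrpl49 (difference -0.59), Mrpl27 (-0.50), a protein whose bacterial counterpart reaches the peptidyl transfer centre, and Mrpl2 (-0.38). Mrpl49 had 3 further probes, which gave 0.12, 0.80 and -0.64.

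HTF set against ISM1 within CD1 gave 55 members higher and 16 lower, against 52.4% higher among all genes, with a median of 0.20 (all genes 0.02) and a range over settings of 0.09 to 0.47, the last with median scaling (all genes 0.21). Without overlap, 8 members were higher (5.16%) and 0 lower (3.54%). By limma, 0 were called (0.0428% of all genes were) and 1, Mrpl35, had an unadjusted p under 0.05 (3.58%). The large subunit's median was 0.28 (37 of 44 higher) and the small subunit's 0.10 (18 of 27 higher). Averaged over the 2 strains, the differences largely cancelled. HTF against in vivo had 40 members higher (51.4% of all genes) with a median of 0.04, and 3 at an unadjusted p under 0.05 (8.25%). Those were Mrpl52, Mrpl42 and Mrps15, all lower, with 0 called by limma (0.203% of all genes were). Without overlap over both strains, 0 members were higher (1.12%) and 0 lower (0.717%). ISM1 against in vivo had 29 higher (50.7%) with a median of -0.05, and 2 at an unadjusted p under 0.05 (3.29%), Mrpl27 and Mrpl42, both lower, with 0 called by limma (0%) and 0 higher (0.193%) or lower (0.161%) without overlap.

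The single CD1 KSOM array allows no test. On it 57 members were above the CD1 in vivo mean and 14 below, with a median difference of 0.33, against 0.03 over all genes. The lean was shared by related lists, with medians of 0.21 for the cytosolic ribosomal protein genes and 0.27 for the Nduf genes. The KSOM array exceeded all 3 in vivo arrays for 27 members (19.8% of all genes) and lay under all 3 for 3 (17%). More than 1.5-fold higher were 13 members (18.9% of all genes) and more than 1.5-fold lower 2 (16.2%), Mrpl39 at 0.95 below the mean and Mrpl45. Mrpl45 was not above background on the KSOM array, where its floor was 5.45 against an in vivo mean of 5.72, so its difference is only a bound. Mrpl57, among the 3 under all in vivo arrays, was not above background there either. Mrps11 lay 1.97 above the in vivo mean, and that mean takes in an array at 5.07 beside another at 8.04. One array cannot separate the medium from the sample.

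The strains were compared within each condition. In HTF, 54 members were higher in CD1 than in B6 and 17 lower, against 52.8% higher among all genes, and the median was 0.26, against 0.02 over all genes. It stayed between 0.18 and 0.30 in 15 of 15 settings. By limma, 0 members were called (0.0107% of all genes were), and 7 had an unadjusted p under 0.05 (2.51% of all genes). Without overlap, 15 members were higher (8.15%) and 2, Mrpl15 and Mrpl38, lower (5.41%). Of the 15, 10 belong to the small subunit (of 27) and 5 to the large one (of 44). All 7 with an unadjusted p under 0.05 were small subunit genes: Mrps10, Mrps15, Mrps16, Mrps21, Mrps25, Mrps28 and Mrps33. The medians of the 2 subunits, however, were close, at 0.29 for small (19 of 27 higher) and 0.23 for large (35 of 44 higher).

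Apart from Mrps15, Mrps16 and Mrps28, these small subunit genes are named with their values known. Mrps15 had 10.23, 9.48 and 9.90 in CD1 HTF embryos, against 8.63, 9.12 and 9.42 in B6 HTF embryos. The groups did not overlap, and the difference was 0.81 (SE 0.28, 95% interval 0.23 to 1.40, adjusted p = 0.9998 by limma). Mrps16 had 9.96, 10.37 and 10.30 in CD1 HTF embryos, against 9.44, 9.35 and 9.24 in B6 HTF embryos, a difference of 0.87 (95% interval 0.13 to 1.61, adjusted p = 0.9998 by limma). Mrps16 is a small subunit protein whose loss causes a respiratory chain disease in humans. Mrps25 had 8.89, 8.66 and 9.21 in CD1 HTF embryos, against 8.14, 8.02 and 8.05 in B6 HTF embryos. Its difference of 0.85 (SE 0.33) was larger than those of its 2 other probes, 0.39 and 0.50, which had the same sign. Mrps33 had 12.43, 12.11 and 12.44 in CD1 HTF embryos, against 11.77, 11.58 and 11.68 in B6 HTF embryos, and its second probe gave 0.74 beside the first one's 0.65.

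The same strain comparison was made in vivo and in ISM1. In vivo, 30 members were higher in CD1 than in B6 and 41 lower (50.8% of all genes were higher), with a median of -0.08 (all genes 0.01). Median scaling took it to -0.74 and all genes to -0.49. It was -0.24 without B6 in vivo replicate 2 and turned to 0.01 without B6 in vivo replicate 3. By limma, 0 members were called (0.0107% of all genes were) and 7 had an unadjusted p under 0.05 (9.61% of all genes): Mrps10, Mrpl39 and Mrps15 higher, and Mrps5, Mrpl55, Mrpl53 and Mrpl43 lower. Without overlap, 7 were higher (5.14%) and 3 lower (5.23%). In ISM1, 35 members were higher and 36 lower (48.9% of all genes were higher), with a median of -0.00. By limma, 0 were called there (0.0107% of all genes were) and 2 had an unadjusted p under 0.05 (2.49%), Mrpl39 and Mrps10. Without overlap, 5 were higher (3.77%) and 2 lower (4.24%).

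Mrps10 stood higher in CD1 in all 3 conditions with replicates. It had 10.07, 9.98 and 10.14 in CD1 HTF embryos, against 8.69, 9.49 and 9.05 in B6 HTF embryos, a difference of 0.98 (95% interval 0.23 to 1.74, adjusted p = 0.9998 by limma). It had 9.32, 9.46 and 10.37 in CD1 ISM1 embryos, against 8.93, 9.08 and 8.61 in B6 ISM1 embryos, a difference of 0.84 (SE 0.36, adjusted p = 0.9999 by limma). It had 10.25, 9.47 and 10.11 in CD1 in vivo embryos, against 9.03, 8.47 and 9.34 in B6 in vivo embryos, a difference of 1.00 (95% interval 0.25 to 1.75, adjusted p = 0.445 by limma). The groups did not overlap in any of the 3. Its second probe gave smaller differences of 0.49, 0.24 and 0.25 in the same order and with the same sign. Whether a strain variant under a probe alters its signal was not tested.

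Mrps15 was also higher in CD1 without overlap in all 3 conditions, by 0.81 in HTF, 0.44 in ISM1 and 0.69 in vivo, on 1 probe. Mrpl39, a large subunit protein found only in mitochondria, had 8.82, 9.12 and 9.53 in CD1 ISM1 embryos, against 7.85, 8.42 and 8.13 in B6 ISM1 embryos, a difference of 1.02 (SE 0.40, 95% interval 0.18 to 1.86, adjusted p = 0.9999 by limma). In vivo it had 9.36, 8.35 and 9.69 in CD1 embryos, against 8.19, 8.08 and 8.13 in B6 embryos, a difference of 1.00 (SE 0.40). In HTF its groups overlapped, at 9.48, 8.28 and 8.33 in CD1 and 7.31, 8.62 and 8.29 in B6 embryos.

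**Figure D5:**
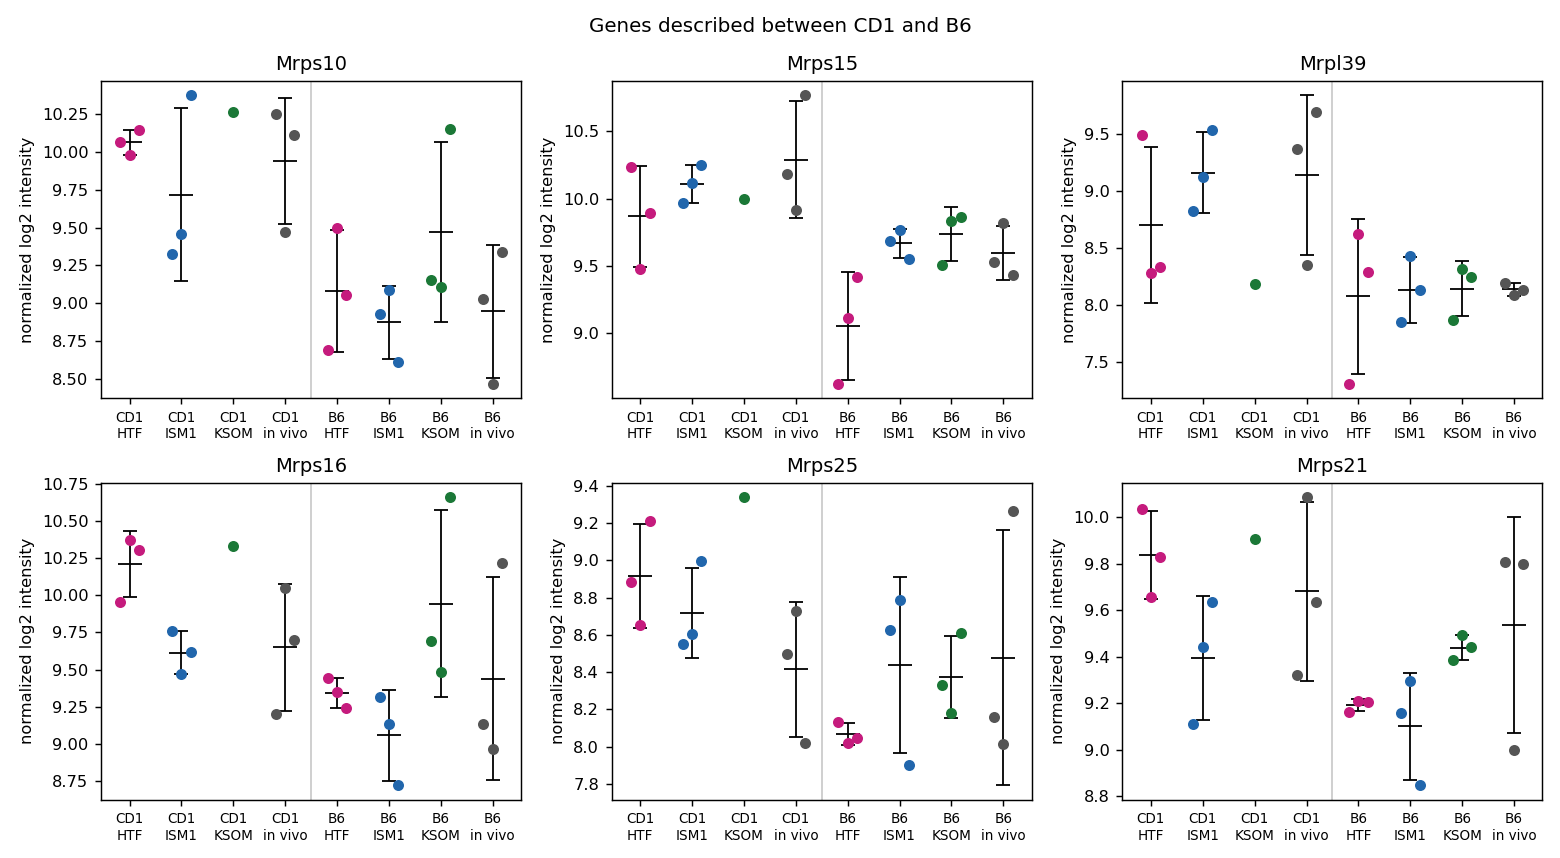
Normalised log2 intensity of Mrps10, Mrps15, Mrpl39, Mrps16, Mrps25 and Mrps21 on each array (dots) by group, with the mean as a bar and the SD as whiskers. Mrps10 and Mrps15 lie higher in CD1 than in B6 in HTF, ISM1 and in vivo, without overlap, while Mrps16 and Mrps25 are farthest apart between the strains in HTF.

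The effect of HTF itself was then compared between the strains, as the CD1 difference from in vivo minus the B6 difference. It was positive for 55 members and negative for 16, against 52.2% positive among all genes, with a median of 0.30 (all genes 0.03). It was above 0 in 21 of 21 settings. With 1 array left out it ranged from 0.23, without B6 in vivo replicate 3, to 0.49, without B6 in vivo replicate 2. Median scaling gave 0.85, where the median of all genes was 0.48. By limma, 0 members were called (0% of all genes), and 3 had an unadjusted p under 0.05 (1.99% of all genes). They were Mrps12 (0.77, SE 0.32, 95% interval 0.08 to 1.45), Mrpl40 (1.03, SE 0.44) and Mrpl55 (1.08, SE 0.49), with an adjusted p of 0.9996 each by limma. Of the 71 members, 33 (46.5%) were higher than in vivo in CD1 HTF and lower in B6 HTF, against 21.8% of all genes. Only 3 (4.23%) showed the reverse, against 19.8% of all genes. For ISM1 the strain difference was positive for 42 members (49% of all genes) with a median of 0.05, and 0 members had an unadjusted p under 0.05 (2.38%) or were called by limma (0%). That median ranged from -0.03 without B6 ISM1 replicate 3 to 0.31 with median scaling (all genes 0.20).

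Other gene sets of the same arrays give a measure for these shifts. The 61 cytosolic ribosomal protein genes, which make the ribosomes outside mitochondria, had a median of -0.19 (17 higher) in B6 HTF, -0.14 (14 higher) in B6 ISM1 and -0.01 (28 higher) in B6 KSOM against in vivo. In CD1 they had 0.03 (34 higher) in HTF and -0.11 (20 higher) in ISM1. The 31 Nduf genes encode complex I subunits and accessory proteins. Their median was -0.61 in B6 HTF, where 0 were higher and 13 were lower without overlap (5.22% of all genes were lower without overlap). Their array means were 10.30 ± 0.12 in HTF-grown and 10.83 ± 0.03 in in vivo B6 embryos (SD, n = 3 each). In CD1 HTF the Nduf median was -0.15 (9 higher, against 52.8% of all genes). With median scaling it was 0.31, below the median of all genes, which was 0.46 there. Between the strains in HTF the Nduf median was 0.47 (28 higher in CD1, against 52.8% of all genes). The mitochondrial ribosomal protein genes were thus nearer to the cytosolic ones than to the Nduf genes in B6 HTF. The shift against KSOM was not particular to the members. The Nduf means of the B6 HTF and ISM1 arrays, at most 10.72, also all lay below those of B6 KSOM, at least 10.73. Cytosolic means overlapped, at 11.44 ± 0.18 in B6 HTF, 11.45 ± 0.08 in B6 ISM1 and 11.63 ± 0.25 in B6 KSOM (SD, n = 3 each). The differences between these lists were not tested.

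A list of other genes of mitochondrial translation and gene expression, 82 of them with a probe on the arrays, among them assembly factors, aminoacyl-tRNA synthetases, translation factors and the transcription machinery, had 68 measured genes. By limma, 0 of these were called in any comparison, with 0, 0 and 7 at an unadjusted p under 0.05 in B6 HTF, ISM1 and KSOM against in vivo (3.39%, 1.19% and 5.92% of all genes). Their medians against in vivo were -0.04 (28 higher) in B6 HTF, -0.09 (26 higher) in B6 ISM1 and -0.02 (34 higher) in B6 KSOM. They were -0.00 (34 higher) in CD1 HTF and -0.05 (29 higher) in CD1 ISM1. Among the 7 in B6 KSOM, Noa1 (-2.06), Mterf3 (-1.84) and Qrsl1 (-1.03) were lower. Elac2 (0.83), Hsd17b10 (0.77), Gfm2 (0.73) and Mtg2 (0.63) were higher. These 7 were named after their values were seen. Dap3, a small subunit protein outside the Mrps naming, was -0.01 (SE 0.22) in B6 HTF and 0.02 (SE 0.22) in CD1 HTF. Tfam, which packs mitochondrial DNA and starts its transcription, was 0.40 (SE 0.43) in B6 HTF and 0.31 (SE 0.43) in CD1 HTF.

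Among 13 translation factors, 9 were higher in CD1 HTF than in vivo (median 0.26), 8 in CD1 ISM1 (0.10), 3 in B6 HTF (-0.12), 4 in B6 ISM1 (-0.07) and 5 in B6 KSOM (-0.09). Tsfm, the exchange factor that reloads elongation factor Tu with GTP, had 7.91, 8.22 and 8.30 in CD1 HTF embryos, against 6.73, 7.41 and 7.61 in CD1 in vivo embryos. The groups did not overlap, at a difference of 0.89 (95% interval 0.24 to 1.55, adjusted p = 0.542 by limma). In CD1 ISM1 embryos its difference from in vivo was 0.84 (SE 0.31). Tufm, the elongation factor itself, had a difference of 0.88 (adjusted p = 0.752 by limma) in CD1 HTF. Its CD1 in vivo arrays were far apart, at 11.85, 9.69 and 11.76.

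Of the 71 members, 50 were read by 1 kept probe and 21 by several, which gave 27 further probes. In B6 HTF against KSOM, 22 of the 27 had the same sign as the probe used, and in CD1 against B6 the number was 19 in HTF, 22 in ISM1 and 17 in vivo. Against in vivo it was 18 in B6 HTF, 13 in B6 ISM1, 17 in B6 KSOM, 16 in CD1 HTF and 19 in CD1 ISM1. Several members with known roles differed by less than their standard error in most comparisons. Against in vivo, Mrpl3 differed by 0.09 in CD1 HTF, -0.02 in CD1 ISM1, 0.02 in B6 HTF, -0.01 in B6 ISM1 and 0.10 in B6 KSOM (SE 0.23 each). Mrps22, a small subunit protein, differed by 0.12 in CD1 HTF and -0.18 in B6 HTF (SE 0.27 each). Mrpl12, which is also known to bind the mitochondrial RNA polymerase, differed by 0.13 in CD1 HTF and -0.28 in B6 HTF (SE 0.32 each). Mrpl11 differed by 0.68 in CD1 HTF and -0.22 in B6 HTF (SE 0.49 each), a strain difference of 0.90 (SE 0.69).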

How the data were processed

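Per the labels' protocols, biotinylated cRNA was transcribed in vitro for 12 h from 150 ng of RNA. The deposited table of raw values gives a linear intensity (67.9 to 39540) and a detection p-value for each of 25697 probes per array. The authors' second table holds log2 values whose sorted values differ by at most 0.000774 between arrays, so these were quantile-normalized. BeadStudio 3.2, RMA and lumi are named in the submitters' processing notes, with no order or role. The genome build is not given in the sources used here.

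Intensities were background-corrected and quantile-normalized with neqc of limma 3.58.1 in R 4.3.3 (offset 16, detection p-values in place of negative controls), then put on the log2 scale. The 12992 probes with a detection p-value under 0.05 on at least 3 arrays were kept, and the kept probe of highest mean stood for each gene. In the array annotation 23978 probes have 1 symbol, 0 have several and 1719 have none. All 71 member IDs matched RefSeq and 0 symbols were updated. A model of 8 group means was fitted over the 22 arrays (lmFit, eBayes, two-sided, 14 residual and 3.51 prior degrees of freedom). Groups come from the strain and medium labels.

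The text names members without overlap in a comparison with in vivo (up to 6 each way), the 4 most and 4 least variable members and part of a fixed list of known genes. From that list, Mrps2, Mrps7, Mrps34, Ptcd3, Chchd1, Polrmt and Lrpprc were measured but their values are not given here. Other members were named after their values were seen. The members and lists were chosen with earlier results of these data known. The alternatives were another background correction, median scaling, the authors' values, no filter, the mean of probes, array weights, a replicate block, only the compared arrays, each replicate left out, and median intensity as a covariate. The procedure was tested on simulated data.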

Additional observations from a re-analysis of the deposited data

Results flagged for a closer look

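Mrps12, the small subunit protein of the decoding site, was flagged because its measured difference between HTF and in vivo was unlike in the strains. The flag rests on the value that follows and adds no support to it. Its CD1 difference from in vivo minus its B6 difference was 0.77 (SE 0.32, 95% interval 0.08 to 1.45), past an unadjusted p of 0.05 but with an adjusted p of 0.9996 by limma. All 3 CD1 HTF arrays lay above all 3 CD1 in vivo arrays (difference 0.46), and all 3 B6 HTF arrays lay below all 3 B6 in vivo arrays (difference -0.31). The CD1 and B6 in vivo arrays themselves did not overlap, at 12.19, 12.12 and 12.32 in CD1 and 12.69, 12.78 and 12.60 in B6. In CD1, Mrps12 was also higher than in vivo in ISM1 (difference 0.37, SE 0.23), and HTF differed from ISM1 by only 0.09 (SE 0.23). The pattern in CD1 is therefore not particular to HTF. Mrps12 was read by 1 kept probe.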

How the results depend on the processing

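Across the 16 contrasts and their alternatives, 255 of 264 fits called 0 members. The exceptions came mostly from array quality weights, which called 2 members in B6 KSOM, 4 in B6 HTF and 8 in B6 ISM1 against in vivo, 1 in B6 HTF and 2 in B6 ISM1 against KSOM, 6 in B6 HTF against ISM1 and 2 in CD1 against B6 in HTF. Those fits also called 423, 1159, 1329, 221, 555, 669 and 84 genes of all kinds, in the same order. Median scaling called 12 members, all lower, in CD1 against B6 in vivo, with 583 genes of all kinds and a shift of all genes by -0.49. Leaving out 1 replicate gave 0 to 2 members in B6 ISM1 against KSOM, with 2 without B6 KSOM replicate 2, and 0 elsewhere. The causes were not tested. With the replicate number as a block, 0 members were called in every contrast. Same-numbered arrays did not deviate together over all groups (correlations of -0.72 to 0.52 over 63 pairs, 23 of them above 0.1). Those of HTF with ISM1 in the same strain were 0.02 to 0.45. Pairing between particular groups was not tested, so these values cannot settle whether the numbers pair samples. The members' median kept its sign in 15 of 15 settings for B6 KSOM, HTF and ISM1 and for CD1 HTF against in vivo, and in 10 of 15 for CD1 ISM1. The normexp alternative used limma's saddle-point method. Median intensity as a covariate was added after seeing the data. Groups of 3 arrays on 1 probe per gene limit what could be detected.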

Other observations

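Mrps11 and Mrpl46 lie head to head on chromosome 7, with 41 bases between their starts. Mrps11 was near background on CD1 in vivo replicate 2, at 5.07 beside 8.04 on replicate 1, while Mrpl46 had 10.82 there, beside 11.37 and 11.16. Mrpl4 was likewise low on that array, at 4.63 beside 8.59 and 8.91. These genes were picked for these values, and neither pattern was tested.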
